A study of Mus musculus with 11 samples.

Results

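The levels of 10 stellate cell and fibroblast marker genes (Lrat, Reln, Des, Dcn, Lum, Pdgfrb, Acta2, Hgf, Rgs5 and Ecm1) were followed in the liver RNA of 11 mice. The genes were chosen by name, and all 10 were found among the 24063 rows of the liver tables. Livers of 6 A2M-treated and 5 PBS-treated animals were compared. All animals were of the strain given as Cd1 nu/nu, athymic mice that lack mature T cells, and according to the study's methods they were male, carried subcutaneous xenografts of a human tumour cell line and were injected intraperitoneally. A2M stands for the activated form of human alpha2-macroglobulin, a large plasma proteinase inhibitor that hepatocytes clear through the receptor LRP1, and the PBS animals received the buffer alone. The xenograft line that each animal carried was not used here, because the labels do not tie it to a liver. Each library held the RNA of whole liver, so that a smaller number of stellate cells and less of an RNA per stellate cell cannot be told apart. Levels are given as RPKM, reads per kilobase of exon scaled to the counted reads of the library, and livers are numbered within their group.

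Hepatic stellate cells lie between the hepatocytes and the sinusoidal endothelium and store vitamin A as retinyl esters. After injury they lose these stores, take on the shape and the contractile proteins of myofibroblasts and lay down fibrous matrix. Portal fibroblasts, vascular smooth muscle cells and pericytes share many of their genes, so that no single marker belongs to stellate cells alone. Among the genes examined, Lrat, Reln and Ecm1 mark the resting cell, Dcn and Lum encode matrix proteoglycans, Hgf and Pdgfrb encode a growth factor and a growth factor receptor, and Des, Acta2 and Rgs5 belong to the cytoskeleton and signalling of contractile cells.

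Promoters are shown first for the contractile genes, because these included the gene whose fold change depended most on a single liver. Of the 10 genes, 7 had an entry in the RefSeq promoter table (GRCm38.p6), and the windows hold 300 bases around the annotated start of transcription. Myl9 and Tpm2 encode a myosin light chain and a tropomyosin of smooth muscle and are shown because their pattern over the livers came closest to that of Acta2. The windows lie at chr19:34255324-34255623 (minus strand), chr2:156775214-156775513 (plus strand), chr4:43523505-43523804 (minus strand), chr1:75360042-75360341 (plus strand) and chr1:169655251-169655550 (plus strand). Capitals mark the E-box CAGCTG, which reads the same on both strands, and the CArG box, the binding sequence of serum response factor, with at most 1 G or C allowed among the 6 bases of its core. The marked stretches do not overlap.
Acta2: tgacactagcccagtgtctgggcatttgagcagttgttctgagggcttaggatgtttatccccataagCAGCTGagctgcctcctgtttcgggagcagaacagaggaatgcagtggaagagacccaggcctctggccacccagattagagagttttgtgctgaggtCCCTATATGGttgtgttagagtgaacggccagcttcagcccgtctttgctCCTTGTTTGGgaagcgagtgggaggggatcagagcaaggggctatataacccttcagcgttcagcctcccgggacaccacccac
Myl9: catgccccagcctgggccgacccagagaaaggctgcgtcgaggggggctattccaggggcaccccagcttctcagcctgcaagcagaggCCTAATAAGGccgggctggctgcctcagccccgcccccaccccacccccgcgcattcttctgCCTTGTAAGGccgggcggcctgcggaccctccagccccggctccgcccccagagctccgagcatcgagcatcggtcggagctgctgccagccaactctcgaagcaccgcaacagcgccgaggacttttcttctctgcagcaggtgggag
Tpm2: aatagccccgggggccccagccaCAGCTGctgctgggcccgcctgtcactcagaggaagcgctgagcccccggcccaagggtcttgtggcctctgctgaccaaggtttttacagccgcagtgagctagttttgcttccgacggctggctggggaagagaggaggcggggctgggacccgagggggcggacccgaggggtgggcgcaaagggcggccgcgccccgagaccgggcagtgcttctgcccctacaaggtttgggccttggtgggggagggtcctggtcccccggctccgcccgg
Des: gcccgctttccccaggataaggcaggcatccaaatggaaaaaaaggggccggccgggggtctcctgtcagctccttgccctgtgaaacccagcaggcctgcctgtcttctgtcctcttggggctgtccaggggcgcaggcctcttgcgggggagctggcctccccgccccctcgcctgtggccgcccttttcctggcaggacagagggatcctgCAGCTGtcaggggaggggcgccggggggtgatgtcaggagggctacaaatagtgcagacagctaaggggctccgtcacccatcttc
Rgs5: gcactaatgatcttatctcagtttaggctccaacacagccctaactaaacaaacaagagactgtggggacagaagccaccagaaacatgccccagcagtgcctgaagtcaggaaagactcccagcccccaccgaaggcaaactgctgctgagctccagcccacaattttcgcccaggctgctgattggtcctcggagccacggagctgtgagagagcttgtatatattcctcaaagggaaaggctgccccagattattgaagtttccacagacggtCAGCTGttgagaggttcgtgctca

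The Acta2 window held 2 CArG boxes of this relaxed form, from base -84 to -75 and from base -34 to -25 counted from the annotated start, and 1 E-box. Myl9 likewise held 2 such CArG boxes, whereas Tpm2, Des and Rgs5 held an E-box and no CArG box within these windows. The box was not confined to contractile genes, as the Lrat window, not shown, held 1 from base -223 to -214. Of 8 windows of the members, 2 held the relaxed CArG box and 3 held CAGCTG. Of 32851 promoter windows of the same length, 9.98% held the relaxed CArG box on either strand and 16.3% held CAGCTG. A match is a description of the letters and no evidence of binding. For Acta2 the start used by the promoter table is not the outer end of the gene interval given below, chr19:34255585. It lies inside that interval, so that by the interval the marked stretches of this window fall within the gene.

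Total counted reads ran from 23545121 to 37357134 in A2M livers and from 31513210 to 46381692 in PBS livers. Every member was counted in every liver, with between 23 reads (Hgf in PBS liver 4) and 4096 reads (Dcn in PBS liver 2). The counting error is therefore largest for Hgf, Des and Acta2. Beside each result stands PBS liver 2, in which genes typical of other tissues were high. Genes of the adrenal cortex summed to 615.6 RPKM there, against 145.0 to 217.8 RPKM in A2M livers and 130.0 to 149.8 RPKM in the other 4 PBS livers. Of these 10 genes, 8 were highest in PBS liver 2, and Fdx1 and Scarb1 were not. Fdx1 stood at 92.4 RPKM there, against 69.4 to 125.0 RPKM in A2M livers and 59.9 to 77.4 RPKM in the other 4 PBS livers. Scarb1 stood at 79.6 RPKM there, against 61.3 to 87.4 RPKM and 60.4 to 81.4 RPKM. Cyp11a1, the enzyme that opens steroid synthesis, reached 99.0 RPKM in PBS liver 2 and was listed at 0 in 9 of the other 10 livers. Fat genes summed to 1093 RPKM in PBS liver 2, against 8.65 to 12.1 RPKM in A2M livers and 7.35 to 25.8 RPKM in the other 4 PBS livers, and all 10 of them were highest there. Ucp1, the uncoupling protein of brown fat, stood at 116 RPKM in PBS liver 2 and at 0 in 9 of the other 10 livers. The part of these tissues in the levels of the stellate cell genes was not tested, and the results of the members and of the gene lists around them are given with and without this liver.

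The question addressed was whether treatment with A2M changed the stellate cell and fibroblast genes of the liver. None of the 10 genes passed the test of A2M against PBS (edgeR quasi-likelihood test, adjusted p under 0.01), at a background of 27 of 12581 genes tested or 0.215%. DESeq2 called none of them at a background of 2.27%, and the edgeR exact test joined with DESeq2 none at a background of 1.47%. No member reached an unadjusted p under 0.05 in the quasi-likelihood test, a level that 14.7% of all genes reached. The fitted log2 fold change was positive, that is higher in A2M livers, for 9 of 10 members, compared with 48.9% of all genes, with a median of 0.14 for the members and -0.0058 for all genes. Without PBS liver 2, again none of the 10 passed, at a background of 7 of 12632 genes or 0.0554%. In that comparison all 10 were positive, compared with 50.1% of all genes, with a median of 0.35, and 4 of them (Reln, Dcn, Hgf and Rgs5) had an unadjusted p under 0.05 in the upward direction, a share to be read against 5.64% of all genes. PBS liver 2 was the highest liver for 9 of 10 members, and leaving it out raised their fold changes. The shares of 50.1% and 5.64% cover all genes, whether or not they were highest in that liver. They are therefore no matched baseline for the members. Without PBS liver 4, the lowest liver for 7 members, 6 of 10 were positive, against 49.3% of all genes. Their median was 0.07, and 0 had an unadjusted p under 0.05 in the quasi-likelihood test, a level that 13.3% of all genes reached. Members were correlated over the livers, so these counts are not of independent genes. The RPKM ranges of the groups overlapped for all 10 members, and 2.27% of all genes had ranges that did not overlap. In the 10 livers other than PBS liver 2 the ranges again overlapped for all 10, against 2.83% of all genes that did not. A gene that misses the threshold is not thereby shown to be equal in both groups, since in simulated counts of this design a 2-fold change was called for 52.2% of the genes given one. Those genes were drawn at random from all genes tested. By fitted variation between livers every member but Ecm1 ranked above the middle of these, with Des at percentile 95.4 and Acta2 at 98.1. The share called was not computed for genes as variable as the members.

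**Figure D1:**
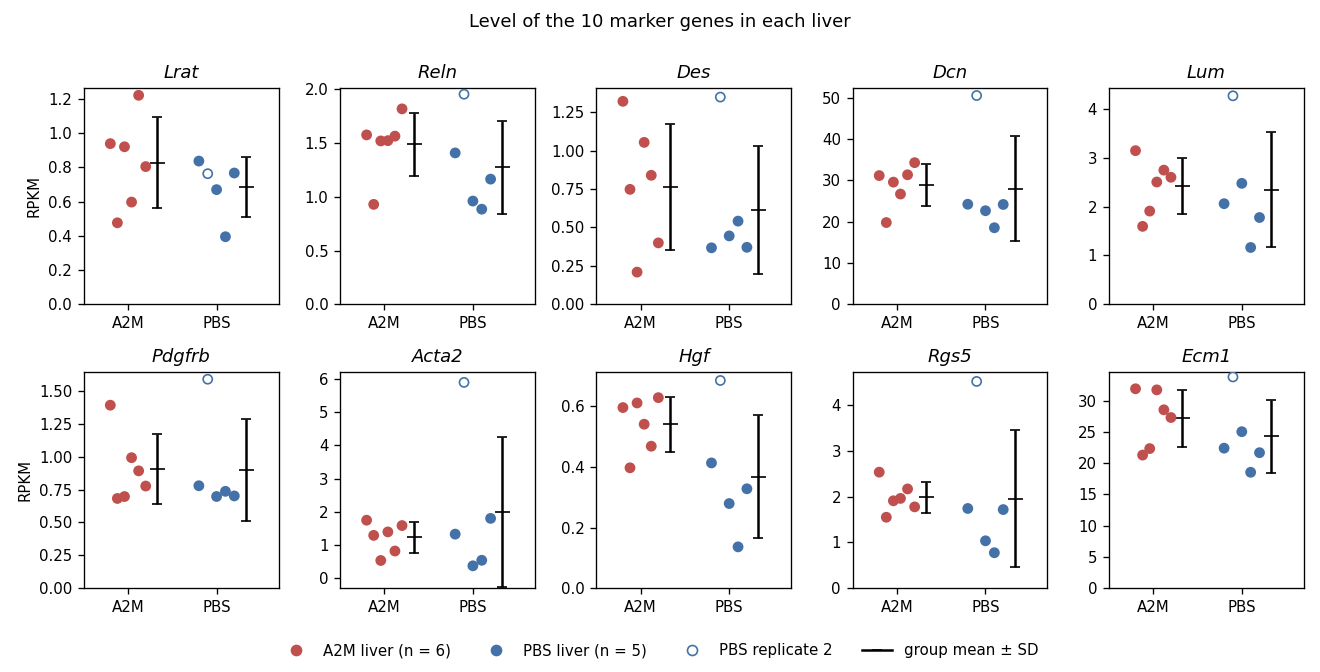
RPKM of each of the 10 marker genes (vertical axis, from 0 except where the error bar of Acta2 reaches below it) in every liver, A2M livers in red on the left and PBS livers in blue on the right, with the mean ± SD of each group in black. The open circle, PBS replicate 2, is the highest point for all genes but Lrat, and the groups overlap in every panel.

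Lrat encodes lecithin retinol acyltransferase, the enzyme that esterifies retinol for storage, and lies at chr3:82892582-82903974. It was present at 0.939, 0.476, 0.921, 0.598, 1.22 and 0.805 RPKM in A2M livers 1 to 6, against 0.837, 0.763, 0.670, 0.395 and 0.767 RPKM in PBS livers 1 to 5. The highest liver was A2M liver 5 and the lowest PBS liver 4, and 3 of 6 A2M livers lay above every PBS liver while A2M livers 2, 4 and 6 lay within the range of the PBS livers. The means were 0.827 ± 0.266 RPKM in A2M livers (SD, n = 6) and 0.687 ± 0.174 RPKM in PBS livers (SD, n = 5), a log2 fold change of 0.30 ± 0.24 (SE, adjusted p = 0.617, edgeR). Lrat was the only member that was not highest in PBS liver 2, and leaving out that liver left its log2 fold change at 0.30.

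Reln encodes reelin, a secreted glycoprotein best known from the developing brain, where it guides migrating neurons, and in the liver it is made by stellate cells. Its gene at chr5:21884454-22344705 shares 246 exonic bases with the antisense gene Gm10475, and the libraries kept no strand. Reln stood at 1.58, 0.929, 1.52, 1.52, 1.56 and 1.82 RPKM in A2M livers 1 to 6, against 1.41, 1.95, 0.960, 0.885 and 1.16 RPKM in PBS livers 1 to 5. Of the A2M livers 5 lay within a narrow band and liver 2 fell well below them, whereas the PBS livers were spread from the lowest to the highest value of the set. The log2 fold change was 0.26 ± 0.18 (SE, adjusted p = 0.565, edgeR). Without PBS liver 2, 5 of 6 A2M livers lay above all remaining PBS livers, and the log2 fold change was 0.42 ± 0.17 (SE, unadjusted p = 0.0256, adjusted p = 0.312, edgeR). When PBS liver 4 was left out instead, it was 0.18 ± 0.19 (SE, adjusted p = 0.749, edgeR).

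Ecm1, extracellular matrix protein 1, is a secreted glycoprotein that in mouse liver holds latent TGF-beta inactive, and its gene at chr3:95734147-95739876 shares 63 exonic bases with the microRNA gene Mir7014 on its own strand. The level was 31.9, 21.3, 22.3, 31.7, 28.5 and 27.3 RPKM in A2M livers 1 to 6, against 22.4, 33.8, 25.0, 18.5 and 21.7 RPKM in PBS livers 1 to 5. Ecm1 varied least over the 11 livers relative to its level, and its A2M livers formed a lower pair and a higher set of 4. The log2 fold change was 0.19 ± 0.14 (SE, adjusted p = 0.590, edgeR), or 0.29 ± 0.14 (SE, adjusted p = 0.396, edgeR) without PBS liver 2.

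The matrix genes Dcn and Lum encode decorin and lumican, small leucine-rich proteoglycans that bind collagen fibrils and set their spacing. Both lie on the plus strand of chromosome 10, Dcn at chr10:97479500-97518163 and Lum at chr10:97565501-97572703, with 47337 bases and 0 other RefSeq genes between them. Dcn was the most abundant member by mean RPKM, at 31.1, 19.8, 29.5, 26.7, 31.3 and 34.3 RPKM in A2M livers 1 to 6, against 24.2, 50.5, 22.6, 18.5 and 24.1 RPKM in PBS livers 1 to 5. The PBS livers other than 2 lay below all A2M livers except liver 2. The means were 28.8 ± 5.06 RPKM in A2M livers (SD, n = 6) and 28.0 ± 12.8 RPKM in PBS livers (SD, n = 5), and the log2 fold change was 0.08 ± 0.20 (SE, adjusted p = 0.908, edgeR). Without PBS liver 2 the PBS mean was 22.4 ± 2.67 RPKM (SD, n = 4), and the log2 fold change was 0.35 ± 0.14 (SE, unadjusted p = 0.0244, adjusted p = 0.307, edgeR). When PBS liver 4 was left out instead, the log2 fold change was -0.015 ± 0.21 (SE, adjusted p = 0.989, edgeR).

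Lum was an order of magnitude lower than Dcn, at 3.15, 1.60, 1.91, 2.51, 2.75 and 2.60 RPKM in A2M livers 1 to 6, against 2.06, 4.27, 2.48, 1.16 and 1.78 RPKM in PBS livers 1 to 5. Its log2 fold change was 0.08 ± 0.27 (SE, adjusted p = 0.926, edgeR), and 0.36 ± 0.23 (SE, adjusted p = 0.572, edgeR) without PBS liver 2. The log2 ratio of Lum to Dcn within a liver averaged -3.59 ± 0.23 in A2M livers (SD, n = 6) and -3.61 ± 0.30 in PBS livers (SD, n = 5), a difference of 0.02 (exact permutation test, two-sided, p = 0.879, adjusted p = 0.879 over the 2 ratios tested). In PBS liver 2 this ratio was -3.56 and lay inside the range of the other livers, although both genes were highest there.

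Hgf encodes hepatocyte growth factor, the ligand of the receptor Met on hepatocytes, and lies at chr5:16553495-16619439. It shares 484 exonic bases with the unclassified transcript Gm43489 on its own strand. The level was 0.596, 0.397, 0.611, 0.541, 0.468 and 0.628 RPKM in A2M livers 1 to 6, against 0.413, 0.685, 0.279, 0.136 and 0.328 RPKM in PBS livers 1 to 5. All A2M livers lay above the PBS median, and 3 of 5 PBS livers lay below every A2M liver. The means were 0.540 ± 0.0911 RPKM in A2M livers (SD, n = 6) and 0.368 ± 0.203 RPKM in PBS livers (SD, n = 5). Hgf had the highest log2 fold change of the 10 genes, 0.60 ± 0.30 (SE, 95% confidence interval -0.05 to 1.25, unadjusted p = 0.0658, adjusted p = 0.385, edgeR). Without PBS liver 2 the value was 0.91 ± 0.26 (SE, 95% confidence interval 0.33 to 1.48, unadjusted p = 0.00480, adjusted p = 0.165, edgeR). DESeq2 gave Hgf an adjusted p of 0.0377 in the same 10 livers, and called 0 of the 10 members there at a background of 1.48%. When PBS liver 4, the lowest for Hgf, was left out instead, the log2 fold change was 0.40 ± 0.25 (SE, unadjusted p = 0.129, adjusted p = 0.536, edgeR).

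The genes around Hgf were taken from a list of its receptor, its activating proteases and their inhibitors. None of the 12 passed the test, 8 were positive and their median log2 fold change was 0.09, or 7 positive at a median of 0.06 without PBS liver 2. Plau, the urokinase that can activate pro-HGF, had a log2 fold change of 0.49 ± 0.28 (SE, adjusted p = 0.452, edgeR), and of 0.75 ± 0.24 without PBS liver 2 (SE, unadjusted p = 0.00935, adjusted p = 0.219, edgeR). Gab1, an adaptor of Met, had one of 0.34 ± 0.15 (SE, adjusted p = 0.323, edgeR), and 0.32 without that liver. Plat, the tissue plasminogen activator, had a log2 fold change of -1.15 ± 0.49 (SE, adjusted p = 0.293, edgeR), and -0.42 without PBS liver 2. In A2M livers the receptor Met ranged from 7.17 to 12.5 RPKM, with values from 7.33 to 9.58 RPKM in PBS livers.

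Pdgfrb encodes the beta receptor for platelet-derived growth factor, the main mitogen receptor of activated stellate cells. It was found at 1.39, 0.683, 0.697, 0.993, 0.893 and 0.777 RPKM in A2M livers 1 to 6, against 0.779, 1.59, 0.698, 0.737 and 0.702 RPKM in PBS livers 1 to 5. The 4 PBS livers other than liver 2 lay close together, with a mean of 0.729 ± 0.0379 RPKM (SD, n = 4), and among A2M livers only liver 1 came near the level of PBS liver 2. The log2 fold change was 0.04 ± 0.24 (SE, adjusted p = 0.961, edgeR), 0.29 ± 0.20 (SE, adjusted p = 0.612, edgeR) without PBS liver 2, and -0.12 without A2M liver 1.

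None of 9 tested genes of PDGF signalling passed, with 6 positive and a median of 0.11, or 7 positive and a median of 0.19 without PBS liver 2. The ligand gene Pdgfc had the smallest p of the list, at 1.07, 1.08, 0.907, 1.22, 0.485 and 1.37 RPKM in A2M livers 1 to 6, against 2.33, 2.13, 2.48, 1.03 and 1.90 RPKM in PBS livers 1 to 5. Apart from PBS liver 4, the PBS livers lay above all A2M livers. Its log2 fold change was -0.92 ± 0.25 (SE, unadjusted p = 0.00316, adjusted p = 0.106, edgeR), and -0.92 without PBS liver 2. The ligand it encodes, PDGF-CC, acts chiefly through the alpha receptor.

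Des encodes desmin, an intermediate filament of muscle and stellate cells, and lies at chr1:75360292-75368579, with 220 exonic bases shared with the antisense gene Gm15179. It stood at 1.32, 0.748, 0.210, 1.05, 0.840 and 0.400 RPKM in A2M livers 1 to 6, against 0.368, 1.35, 0.445, 0.542 and 0.371 RPKM in PBS livers 1 to 5. A2M livers ranged from the lowest of all 11 livers (liver 3) to the second highest (liver 1), whereas 4 of the PBS livers lay close together at a mean of 0.431 ± 0.0818 RPKM (SD, n = 4). The log2 fold change was 0.35 ± 0.45 (SE, adjusted p = 0.787, edgeR), or 0.78 ± 0.43 (SE, adjusted p = 0.486, edgeR) without PBS liver 2.

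Acta2 encodes alpha smooth muscle actin, present in vascular smooth muscle and the usual sign of stellate cell activation, and lies at chr19:34240336-34255585. The level was 1.75, 1.29, 0.531, 1.39, 0.816 and 1.58 RPKM in A2M livers 1 to 6, against 1.33, 5.90, 0.370, 0.536 and 1.80 RPKM in PBS livers 1 to 5. PBS liver 2 exceeded the mean of the other PBS livers 5.85-fold, the largest such ratio of the 10 genes, and the remaining PBS livers covered the same range as the A2M livers. The means were 1.23 ± 0.465 RPKM in A2M livers (SD, n = 6) and 1.99 ± 2.26 RPKM in PBS livers (SD, n = 5). Acta2 was the only member with a negative log2 fold change, -0.61 ± 0.56 (SE, 95% confidence interval -1.83 to 0.61, adjusted p = 0.680, edgeR). The sign turned when PBS liver 2 was left out, to 0.29 ± 0.42 (SE, 95% confidence interval -0.63 to 1.21, adjusted p = 0.850, edgeR).

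The log2 ratio of Acta2 to Lrat sets the contractile marker against the retinoid marker in the same liver. It was 0.89, 1.43, -0.79, 1.22, -0.58 and 0.98 in A2M livers 1 to 6, against 0.66, 2.95, -0.86, 0.44 and 1.23 in PBS livers 1 to 5. The ratio thus changed sign within both groups. The means were 0.52 ± 0.96 in A2M livers (SD, n = 6) and 0.89 ± 1.38 in PBS livers (SD, n = 5), a difference of -0.36 (exact permutation test, two-sided, p = 0.654, adjusted p = 0.879 over the 2 ratios tested). With PBS liver 2 left out the difference was 0.16 (exact permutation p = 0.743).

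Rgs5 encodes a regulator of G protein signalling that marks pericytes, and lies at chr1:169655501-169695813. Its level was 2.53, 1.55, 1.91, 1.96, 2.17 and 1.78 RPKM in A2M livers 1 to 6, against 1.74, 4.52, 1.03, 0.775 and 1.72 RPKM in PBS livers 1 to 5. Once PBS liver 2 was set aside, 5 of 6 A2M livers lay above every PBS liver, and A2M liver 2 lay above the PBS median. The log2 fold change was 0.08 ± 0.34 (SE, adjusted p = 0.949, edgeR), and 0.59 ± 0.23 (SE, unadjusted p = 0.0226, adjusted p = 0.297, edgeR) without PBS liver 2. When PBS liver 4 was left out instead, it was -0.11 ± 0.31 (SE, adjusted p = 0.919, edgeR). Of 6 tested relatives in the R4 family of RGS proteins none passed and 5 were positive at a median of 0.16, or 6 at a median of 0.20 without PBS liver 2. Rgs3 had the smallest p of them, with a log2 fold change of 1.11 ± 0.52 (SE, adjusted p = 0.353, edgeR), and 1.08 without that liver.

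**Figure D2:**
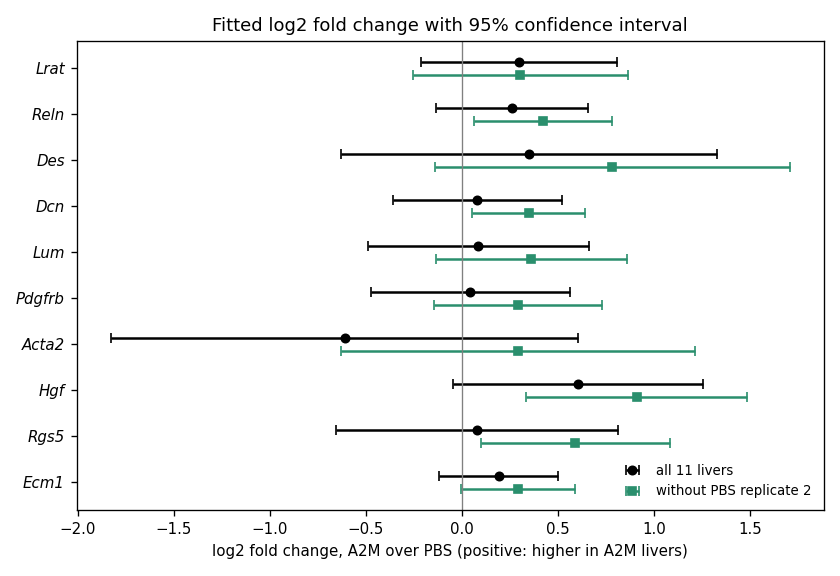
Fitted log2 fold change of A2M over PBS (horizontal axis, points, positive when higher in A2M livers) with its 95% confidence interval (bars) for each marker gene (vertical axis), from all 11 livers in black and without PBS replicate 2 in green. The point of Acta2 is at -0.61 in all livers and at 0.29 without PBS replicate 2, and the green intervals of Reln, Dcn, Hgf and Rgs5 lie above 0.

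The order of the 10 genes by mean RPKM over the 11 livers was Dcn (28.4), Ecm1 (25.9), Lum (2.39), Rgs5 (1.97), Acta2 (1.57), Reln (1.39), Pdgfrb (0.904), Lrat (0.763), Des (0.695) and Hgf (0.462). Dcn lay above Ecm1 in 6 of 11 livers only, so that these leading genes did not differ beyond their spread. A wide gap followed, with Ecm1 above Lum in 11 of 11 livers. Acta2 lay above Reln in 4 of 11 livers although its mean was higher, Pdgfrb above Lrat in 6 of 11, and Lrat above Des in 6 of 11. Lum lay above Rgs5 in 10 of 11 livers and Reln above Pdgfrb in 11 of 11.

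PBS liver 2 was highest for 9 of 10 members and A2M liver 1 was second for 6 of them. PBS liver 4 was lowest for 7, and it was the most deeply sequenced liver, though RPKM is scaled to depth. Summed RPKM of the members came to 76.3, 48.7, 60.2, 68.9, 70.6 and 71.9 in A2M livers 1 to 6, against 55.5, 105.3, 54.6, 42.2 and 54.4 in PBS livers 1 to 5. By the fold over the mean of the other PBS livers, PBS liver 2 was 5.85-fold for Acta2, 3.43-fold for Rgs5 and 3.13-fold for Des, the contractile genes, and 1.14-fold for Lrat, 1.54-fold for Ecm1 and 1.77-fold for Reln, the genes of the resting cell. Dcn, Lum, Pdgfrb and Hgf lay between, from 2.18-fold to 2.37-fold.

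**Figure D3:**
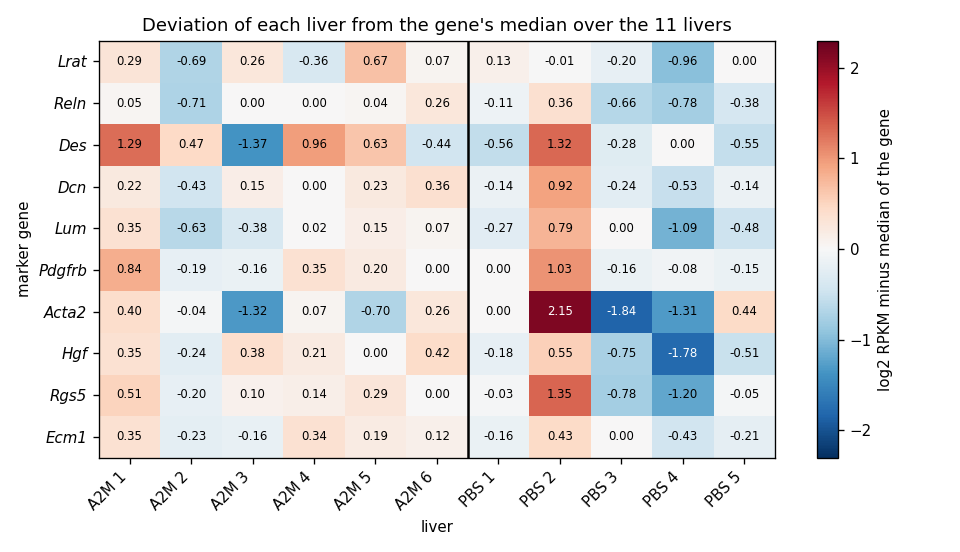
Difference of log2 RPKM from the median of the same gene over the 11 livers (colour and printed value) for each marker gene (rows) in each liver (columns, A2M livers left of the black line and PBS livers right of it). The column of PBS 2 reaches 2.15 for Acta2, the column of PBS 4 reaches -1.78 for Hgf, and A2M 1 lies above the median for all 10 genes.

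Lists of other mesenchymal genes also turned with PBS liver 2. Of 10 tested genes of vascular smooth muscle and pericytes none passed. With all livers 1 of 10 was positive, at a median log2 fold change of -0.46, and without PBS liver 2 all 10 were, at a median of 0.27. All 16 genes of that list were highest in PBS liver 2, where they summed to 33.3 RPKM, against 6.28 to 13.5 RPKM in A2M livers and 5.15 to 10.3 RPKM in the other 4 PBS livers. Myl9 had a log2 fold change of -0.66 ± 0.54 (SE, adjusted p = 0.629, edgeR), and 0.24 without PBS liver 2.

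Among 16 tested genes that rise when stellate cells become myofibroblasts, none passed and 1 was positive, at a median log2 fold change of -0.27. Without PBS liver 2, 7 of 16 were positive at a median of -0.01. Mmp14, a membrane-bound metalloproteinase, kept a negative value of -0.61 ± 0.21 with all livers (SE, adjusted p = 0.187, edgeR) and -0.65 ± 0.23 without PBS liver 2 (SE, adjusted p = 0.250, edgeR). Lox, which cross-links collagen, had a log2 fold change of -1.25 ± 0.44 (SE, adjusted p = 0.198, edgeR), and -0.79 without that liver.

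Portal fibroblast genes gave 0 of 11 called and 2 positive, at a median of -0.54, and 6 positive at a median of 0.12 without PBS liver 2. Ogn, another small leucine-rich proteoglycan, reached 2.23 RPKM in PBS liver 2, against 0.0669 to 0.316 RPKM in A2M livers and 0.0875 to 0.407 RPKM in the other 4 PBS livers. Of the 7 tested relatives of Dcn and Lum in that family none passed, and 3 were positive at a median of -0.16, or 4 at a median of 0.05 without PBS liver 2. Kera and Epyc, of the same family, were listed at 0 in every liver.

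A second set of 18 tested stellate cell genes, which did not include the 10, held 12 positive genes at a median log2 fold change of 0.20, and 13 at a median of 0.35 without PBS liver 2, and none passed in either case. Gdf2, which encodes the hepatic ligand BMP9, stood at 4.13, 1.48, 2.73, 3.26, 2.37 and 2.62 RPKM in A2M livers 1 to 6, against 2.13, 1.99, 2.07, 1.06 and 1.94 RPKM in PBS livers 1 to 5. All A2M livers but liver 2 lay above every PBS liver. Its log2 fold change was 0.62 ± 0.23 (SE, unadjusted p = 0.0189, adjusted p = 0.224, edgeR), and 0.61 without PBS liver 2. In contrast to most members, Gdf2 was not raised in PBS liver 2.

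Vitamin A handling was examined with 12 tested genes beside Lrat, of which none passed and 7 were positive, at a median of 0.09. The median turned to -0.0081, with 6 positive, when PBS liver 2 was left out. Retsat, a retinol saturase, had a log2 fold change of 0.44 ± 0.14 (SE, adjusted p = 0.155, edgeR), and 0.46 without that liver. Plin5 and Plin2, which coat lipid droplets, had log2 fold changes of -0.47 ± 0.16 (SE, adjusted p = 0.171, edgeR) and -0.48 ± 0.22 (SE, adjusted p = 0.341, edgeR). Their values without that liver were -0.55 for Plin5 and -0.48 for Plin2. Most of these genes are expressed by hepatocytes as well. Of 9 tested genes of the reelin pathway none passed, and 5 were positive at a median of 0.02, or 8 at a median of 0.09 without PBS liver 2. The reelin receptor gene Vldlr ranged from 0.233 to 1.02 RPKM in A2M livers and from 0.304 to 1.30 RPKM in PBS livers, while Lrp8, the other receptor, did not exceed 0.0502 RPKM in any liver.

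Markers of neighbouring cell types moved with the members in part. Genes of the sinusoidal endothelium summed to 42.7 to 71.9 RPKM in A2M livers, against 75.5 RPKM in PBS liver 2 and 26.4 to 45.4 RPKM in the other 4 PBS livers, and 7 of 10 were lowest in PBS liver 4. None of the 10 passed. They had 7 positive log2 fold changes at a median of 0.15, and 8 at a median of 0.50 without PBS liver 2, led by Gpr182 with 0.57 in all livers and 0.77 ± 0.19 without PBS liver 2 (SE, adjusted p = 0.103, edgeR). Kupffer cell genes summed to 360.1 RPKM in A2M liver 1, against 69.6 to 154.5 RPKM in the other A2M livers and 53.3 to 148.2 RPKM in PBS livers. Hepatocyte genes summed to 55107 to 66259 RPKM in A2M livers and 46546 to 71686 RPKM in PBS livers, with the highest sum in PBS liver 4. Their median log2 fold change was -0.0064, and -0.06 without PBS liver 2. The part of these cell types in the levels of the members was not tested.

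**Figure D4:**
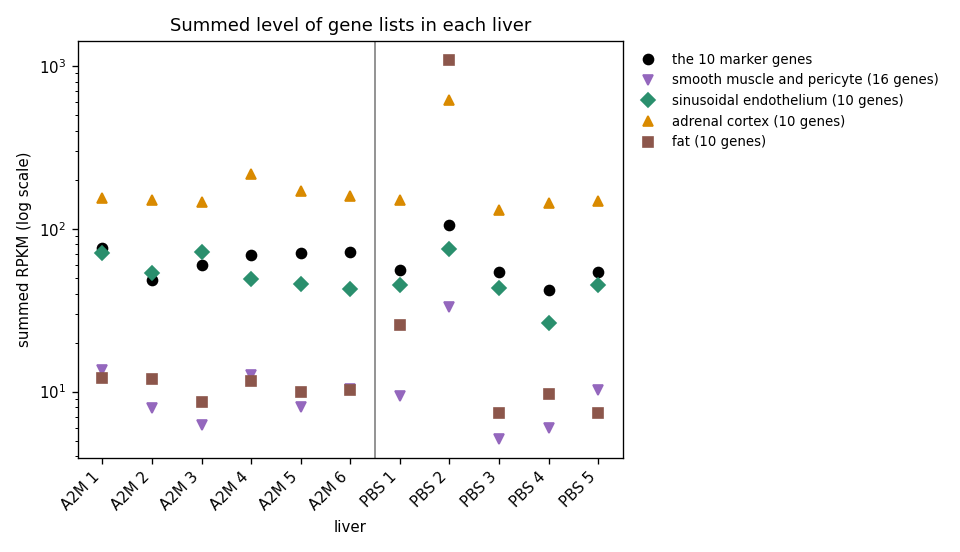
Summed RPKM (vertical axis, log scale) of the 10 marker genes and of lists of smooth muscle and pericyte, sinusoidal endothelial, adrenal cortex and fat genes in each liver (horizontal axis, A2M livers left of the line and PBS livers right of it). In PBS 2 the fat genes reach 1093 RPKM and the adrenal cortex genes 615.6 RPKM, and the marker genes reach their highest sum of 105.3 RPKM.

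Across the 11 livers most pairs of members were positively correlated. The share among pairs of other genes was not computed, so this is not shown to be particular to the members. Over all 45 pairs, log2 CPM (counts scaled to library depth) were positively correlated in 44, with a median Pearson r of 0.64, and 20 pairs had an adjusted permutation p under 0.05 by Pearson and 13 by Spearman (100000 resamples, adjusted over the 45 pairs). The strongest was Lum with Ecm1 (r = 0.90, permutation p = 0.00022, adjusted p = 0.00495; rho = 0.76, permutation p = 0.00852, adjusted p = 0.0319). Reln with Dcn followed (r = 0.88, permutation p = 9.0e-05, adjusted p = 0.00405; rho = 0.95, permutation p = 4.0e-05, adjusted p = 0.0018). The neighbours Dcn and Lum gave r = 0.86 (permutation p = 0.00103, adjusted p = 0.00652) and rho = 0.85 (permutation p = 0.00201, adjusted p = 0.0134). Lrat had r = 0.04 against Acta2 (permutation p = 0.901, rho = 0.09) and r = -0.09 against Des (permutation p = 0.803, rho = -0.07). Against Rgs5 it had r = 0.49 (permutation p = 0.120, adjusted p = 0.154, rho = 0.60), and r = 0.71 without PBS liver 2 (permutation p = 0.0226, adjusted p = 0.0730, rho = 0.77).

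When the 2 livers farthest from the median of the first gene were left out of each pair, 1 of 45 pairs kept an adjusted p under 0.05 by Pearson, Reln with Hgf (r = 0.94, permutation p = 0.0002, adjusted p = 0.009, 9 livers), and 0 did by Spearman. These sets hold fewer livers, and a lost call need not mean a weaker relation, since the r of some pairs fell and that of others did not. Lum with Rgs5, for example, had r = 0.35 in the reduced set and r = 0.78 over all livers. In these reduced sets Reln with Dcn gave r = 0.81 (permutation p = 0.00834, adjusted p = 0.0751) and Lum with Ecm1 gave r = 0.91 (permutation p = 0.00332, adjusted p = 0.0514). With group means removed, 19 pairs passed by Pearson and 2 by Spearman, and without PBS liver 2, 10 passed by Pearson and 12 by Spearman. With both changes 0 pairs passed by Spearman and 2 by Pearson, Reln with Dcn (r = 0.88, adjusted permutation p = 0.0477) and Lum with Ecm1 (r = 0.88, adjusted permutation p = 0.0477). Acta2 with Rgs5 passed with all livers (r = 0.79, permutation p = 0.00583, adjusted p = 0.0219) and not without PBS liver 2 (r = 0.61, permutation p = 0.0571, adjusted p = 0.107).

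**Figure D5:**
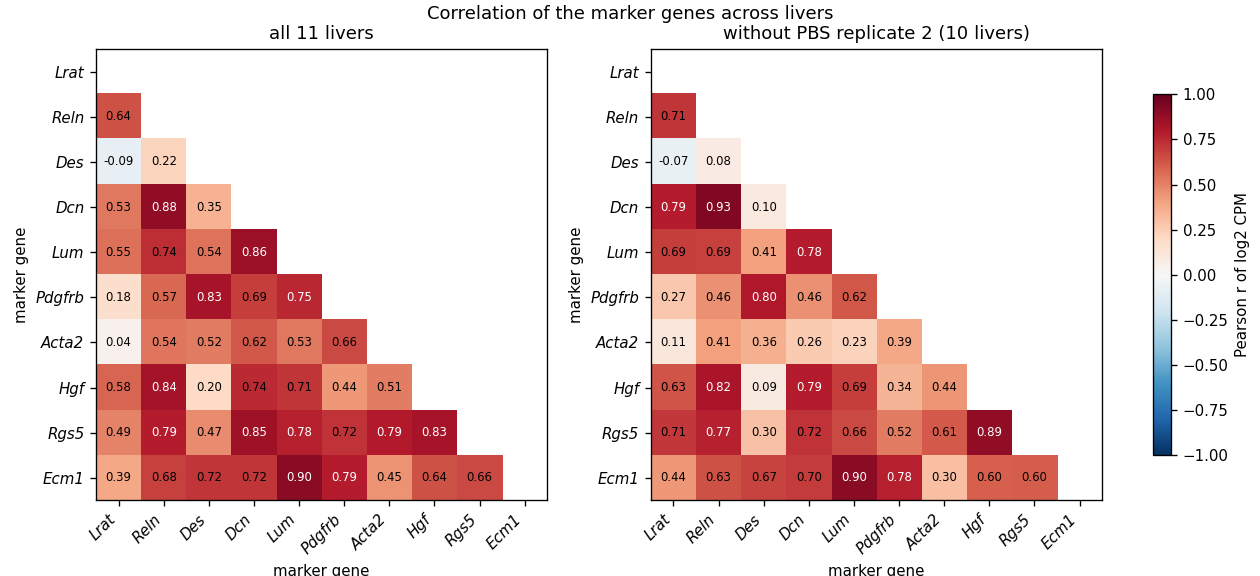
Pearson r of log2 CPM (colour and printed value) for each pair of marker genes (rows and columns), over all 11 livers on the left and over 10 livers without PBS replicate 2 on the right. Reln with Dcn stands at 0.88 and 0.93, Lum with Ecm1 at 0.90 in both, and Lrat with Des near 0 in both.

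The genes with the most similar pattern were sought by Spearman rho over the 11 livers among 11167 genes with a mean of at least 1 CPM. These are descriptions, since a great number of genes were compared over few livers. Acta2 was closest to Myl9 (rho = 0.97), Tpm2 (rho = 0.94) and Flna (rho = 0.94), which encodes filamin A, an actin cross-linker. Over the 10 livers other than PBS liver 2, Pearson r with these genes was 0.91, 0.94 and 0.85. Rgs5 was closest to Ntn1 (rho = 0.98), Ckap4 (rho = 0.98) and Prelp (rho = 0.97). Ntn1 encodes netrin-1 and was in the second set of stellate cell genes, and Prelp is a small leucine-rich proteoglycan.

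Pam, an enzyme that amidates secreted peptides, was among the 3 closest genes of Dcn (rho = 0.95), Reln (rho = 0.94) and Hgf (rho = 0.93). Dcn was also close to Sod3 (rho = 0.94), the extracellular superoxide dismutase, and Tnfrsf21 (rho = 0.94), Reln to Pmepa1 (rho = 0.95) and Sgce (rho = 0.93), and Hgf to Rab31 (rho = 0.95) and Itpkb (rho = 0.91). Ecm1 was closest to Gdf10 (rho = 0.92), a ligand of the TGF-beta family, Hmgn1 (rho = 0.92) and Atp1b3 (rho = 0.91). Lum was closest to Efemp2 (rho = 0.91), a fibulin of elastic fibres, Tnfaip8 (rho = 0.89) and Rcn3 (rho = 0.89), and Pdgfrb to Slc7a11 (rho = 0.92), Snrpf (rho = 0.91) and Scarf2 (rho = 0.91). Des was closest to Sh2b2 (rho = 0.94), Gnb1 (rho = 0.93) and Coq6 (rho = 0.90), and Lrat to Irak4 (rho = 0.93), Tsc2 (rho = 0.87) and Kif3b (rho = 0.85). For Lrat, Reln, Des, Lum, Pdgfrb, Hgf and Ecm1, 0 of the 3 closest genes were on a list of mesenchymal genes used here. The number was 1 for Dcn (Sod3), 2 for Acta2 (Myl9 and Tpm2) and 2 for Rgs5 (Ntn1 and Prelp).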

How the data were processed

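Total RNA of 11 livers was sequenced from TruSeq RNA v2 libraries, which keep no strand. Per the labels and the study's methods, the authors extracted reads with bcl2fastq 1.8.4, mapped them to mm10 with TopHat2 and counted them per RefSeq gene with featureCounts, and deposited raw read counts, RPM (counts scaled to library depth, recomputed from the counts within 1e-06) and RPKM. Counts were tested with edgeR 4.0.16 in R 4.3.3 (TMM, filterByExpr, quasi-likelihood test, Benjamini-Hochberg adjustment over 12581 genes, adjusted p under 0.01). RPKM values gave levels and ratios, and log2 CPM (prior count 2) gave correlations in Python 3.11. The samples are separate animals by their labels, which give no batch, time of day or pairing.

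The members and the gene lists were chosen with earlier results of these data known. Named genes were the 10 members, of each other list up to 3 genes with the smallest p, for lists of other cell types the defining markers at 0 or at the highest level, and the 3 genes most like each member by Spearman rho. Met, Vldlr, Lrp8, Kera and Epyc were chosen after their values were seen. Gene positions and promoters are from RefSeq (GRCm38.p6) and exon overlaps from GENCODE. Alternatives were RLE factors, library totals, other filters, robust dispersion, DESeq2 1.42.0, the edgeR exact test with DESeq2, an adjusted p under 0.05 and leaving out each liver. Leaving out PBS liver 2 from the correlations, and together with A2M liver 1 from the fits, was added after seeing the data. Of the fits with a liver left out, only that without PBS liver 2 was repeated with DESeq2. The tests were checked on simulated counts. Of the listed genes, 1 was matched by an older symbol and Muc16 was not matched. Every pair of libraries differed by more than counting noise (smallest chi-square per degree of freedom 28.5).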

Additional observations from a re-analysis of the deposited data

Results flagged for a closer look

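Within-group outliers by Dixon's criterion were found in 7 of 26 groups of values examined. The criterion flags about 1 in 20 groups of independent, normally distributed values. Most values here were RPKM of correlated genes, so the 7 cannot be set against that rate. PBS liver 2 was the high outlier of the PBS livers for Des (1.35 RPKM, other PBS livers 0.368 to 0.542), Dcn (50.5 RPKM, others 18.5 to 24.2), Pdgfrb (1.59 RPKM, others 0.698 to 0.779), Acta2 (5.90 RPKM, others 0.370 to 1.80) and Rgs5 (4.52 RPKM, others 0.775 to 1.74). The same liver was the high outlier for the summed RPKM of the 10 genes (105.3, others 42.2 to 55.5). These flags come from 1 library and are not independent of each other. A2M liver 2 was the low outlier of the A2M livers for Reln (0.929 RPKM, others 1.52 to 1.82). It also had the fewest counted reads, though RPKM is scaled to depth.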

How the results depend on the processing

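None of the 10 members was called in any setting run. The number of all genes called was 27, and it was 286 by DESeq2, 185 by the exact test joined with DESeq2, 154 at an adjusted p under 0.05, 10 without PBS liver 2 and A2M liver 1 together (chosen after seeing the data), and 6 to 35 when each liver in turn was left out. Leaving out 1 liver moved the log2 fold change of Acta2 between -0.87 and 0.29 (positive without PBS liver 2), that of Dcn between -0.015 and 0.35 (negative without PBS liver 4), that of Lum between -0.072 and 0.36 (negative without A2M liver 1 or PBS liver 4), that of Pdgfrb between -0.12 and 0.29 (negative without A2M liver 1 or PBS liver 1, 3 or 5) and that of Rgs5 between -0.11 and 0.59 (negative without A2M liver 1 or PBS liver 3 or 4). The other members kept a positive sign, Lrat from 0.15 to 0.41, Reln from 0.18 to 0.42, Des from 0.12 to 0.78, Hgf from 0.40 to 0.91 and Ecm1 from 0.13 to 0.29. Without PBS liver 2 and A2M liver 1 together Acta2 stood at 0.17. The difference in the log2 ratio of Acta2 to Lrat ran from -0.80 to 0.16 over single livers left out (positive without PBS liver 2) and was 0.27 by group medians, and that of Lum to Dcn ran from -0.070 to 0.13 (negative without A2M liver 1 or 4 or PBS liver 4 or 5) and was -0.0070 by group medians. The number of correlated pairs was 20, and it was 1 without the 2 farthest livers, 10 without PBS liver 2 and 2 with group means removed as well (both of these chosen after seeing the data). The causes were not tested. In simulated counts of this design 13.4% of genes changed 1.5-fold and 52.2% of genes changed 2-fold were called.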

Other observations

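Kupffer cells, the resident macrophages of the liver sinusoid, gave 10 of 10 listed genes with a positive log2 fold change, compared with 48.9% of all genes. The median was 0.61 (0.52 without PBS liver 2), and 0 of the 10 genes passed the test. Marco, a scavenger receptor, had the value 1.62 ± 0.81 (SE, adjusted p = 0.384, edgeR), or 1.36 ± 0.82 (SE, adjusted p = 0.543, edgeR) without PBS liver 2. Of these genes 8 were lowest in PBS liver 4, the liver in which 7 of the 10 stellate cell and fibroblast markers were also lowest. The Kupffer cell genes summed to 360.1 RPKM in A2M liver 1. The other A2M livers, at 69.6 to 154.5 RPKM, overlapped the PBS livers, at 53.3 to 148.2 RPKM. Fold changes of these genes without A2M liver 1 were not examined.

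Of 9 tested bile duct genes 0 passed and 5 were positive, at a median log2 fold change of 0.11, or 0.07 without PBS liver 2. Their summed level was 21.2 to 32.9 RPKM in A2M livers, against 159.6 RPKM in PBS liver 1 and 17.7 to 51.6 RPKM in the other PBS livers. Sox9, a transcription factor of bile duct cells, had a log2 fold change of -0.95 ± 0.25 (SE, adjusted p = 0.0896, edgeR), and Spp1, which encodes osteopontin, one of -1.56 ± 0.48 (SE, adjusted p = 0.133, edgeR). Tspan8, a tetraspanin, had a positive value of 0.75 ± 0.33 (SE, adjusted p = 0.313, edgeR), and of 0.99 ± 0.32 without PBS liver 2 (SE, adjusted p = 0.220, edgeR). The list of mesothelial and capsule genes, which holds the keratin Krt8, summed to 561.8 RPKM in A2M liver 4. The sums were 112.7 to 191.9 RPKM in the other A2M livers and 112.6 to 192.3 RPKM in PBS livers. Which gene carried these sums was not examined, so they are no measure of capsule tissue. Of the 7 tested genes of that list 0 passed and 1 was positive. Their median log2 fold change was -0.52, or -0.48 without PBS liver 2, with 1 positive again. Skeletal muscle genes summed to 2.20 to 4.48 RPKM in A2M livers and 2.62 to 3.87 RPKM in PBS livers, and pancreas genes to 24.3 to 37.1 RPKM in A2M livers and 34.0 to 44.4 RPKM in PBS livers. The part of these cells in the levels of the stellate cell and fibroblast markers was not tested.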
